A study of Bos taurus and Bos indicus with 6 samples.

Results

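Cytotoxic lymphocytes kill with a granule that holds a pore-forming protein and a set of proteases, and the genes for that machinery were followed in the blood of cattle carrying ticks. The genes sought were GZMB, PRF1, GZMA, GZMK, NKG7, CTSW, FASLG and CCL5. Every probe set with 1 of these 8 symbols in the array's annotation was taken, which gave 9 of the 24016 probe sets tested and covered 6 of the genes. A probe set is a group of short probes on an Affymetrix GeneChip that together measure a transcript. The set was chosen by the level of GZMB in Brahman against Holstein on these same arrays, to which the other genes of its pathway were added, so the breed differences of all 9 probe sets are a description and carry no test.

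The series compared the whole white cell pellet of jugular blood from 3 Brahman cattle, labelled Bos indicus, and 3 Holstein cattle, labelled Bos taurus. All 6 animals were females of 6 months under heavy challenge with the cattle tick R. microplus, and each was measured on its own array with no cell sorting or culture. Brahman cattle are widely held to resist this tick better than Holstein cattle, and the comparison asks how their circulating leukocytes differ while both carry ticks. Arrays from animals without ticks were not analysed here, so a difference between the breeds that exists without ticks would be part of every value.

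On contact with a target, NK cells and cytotoxic T cells release perforin, which opens the target membrane to granzymes, and the granzymes cleave proteins inside the target cell so that it dies. Fas ligand is a second route, a surface protein that triggers the death receptor Fas on the target. CCL5 is a chemokine that activated T cells and NK cells secrete and that draws further leukocytes. In cattle, NK cells, CD8 T cells and part of the large circulating population of gamma delta T cells can carry this machinery.

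Values are log2 expression levels made with RMA, so a difference of 1 is a doubling of signal. All differences are Brahman minus Holstein. Median levels were between 6.55 and 6.61 on all arrays. The hybridisation spike-ins, read by 18 control probe sets for transcripts added to the hybridisation mix, were at 9.72 ± 0.08 (SD, n = 3) in Brahman and 10.14 ± 0.22 (SD, n = 3) in Holstein and did not overlap between the breeds. Across the array, limma called 33 probe sets at an adjusted p under 0.05. In 4811 probe sets, or 20.0%, the breeds did not overlap.

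GZMB encodes granzyme B, the granule protease that cleaves caspases and their substrates in the target cell. Its single probe set (Entrez gene 281731) read 9.92, 9.76 and 9.42 in Brahman 1, 2 and 3, against 7.10, 7.77 and 6.71 in Holstein 1, 2 and 3. Every Brahman animal lay above every Holstein animal, with a gap of more than a log2 unit between the nearest animals. The mean was 9.70 ± 0.25 (SD, n = 3) in Brahman and 7.19 ± 0.54 (SD, n = 3) in Holstein, a difference of 2.51 (SE 0.26) or 5.70-fold. Among the 24016 probe sets this was the 7th in size. The widest gap within a breed was 1.06, between Holstein 2 and Holstein 3, which is smaller than the difference between the breeds. All 6 values lay well above the lower quartile of all probe sets, 5.08, below which a level is not shown here to differ from background.

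Of the 9 cytotoxic probe sets only that of GZMB was called by limma, against 0.137% of all probe sets. That count describes how the genes were picked and is not evidence about the group. The size changed little with any 1 animal left out, but the call was lost in 4 of these 6 fits. Over the whole array the same fits called from 5 to 55 probe sets. The part of a given animal thus cannot be told apart from that of having fewer arrays. Without Brahman 1, 2 or 3 the difference was 2.40, 2.48 and 2.65, with limma adjusted p-values of 0.104, 0.133 and 0.0568. Without Holstein 1 it was 2.47 (limma adjusted p = 0.110). Without Holstein 2 or Holstein 3 it was 2.80 and 2.27, and the probe set stayed called. When the mean level of the spike-ins was added to the model the difference was 3.03, and it was not called (limma adjusted p = 0.358). That model called 0 probe sets over the whole array. Since the spike-in mean did not overlap between the breeds, the model separates it poorly from breed for every probe set.

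**Figure D1:**
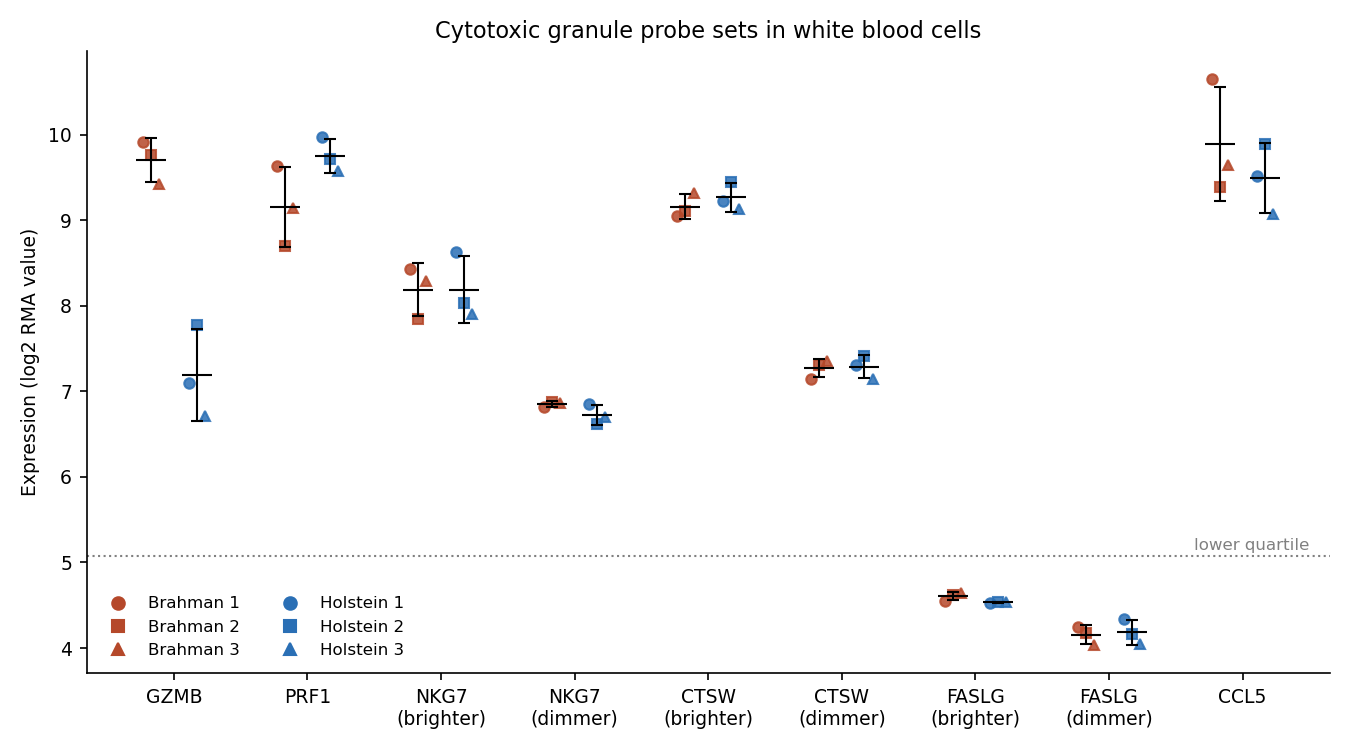
Log2 RMA level (vertical axis) of the 9 cytotoxic granule probe sets (horizontal axis), with each Brahman animal in red and each Holstein animal in blue. Black marks show the mean and SD over 3 animals, and the dotted line is the lower quartile of all probe sets (5.08). GZMB separates the breeds by 2.51, while the animals of both breeds overlap for PRF1, NKG7, CTSW and CCL5.

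**Figure D2:**
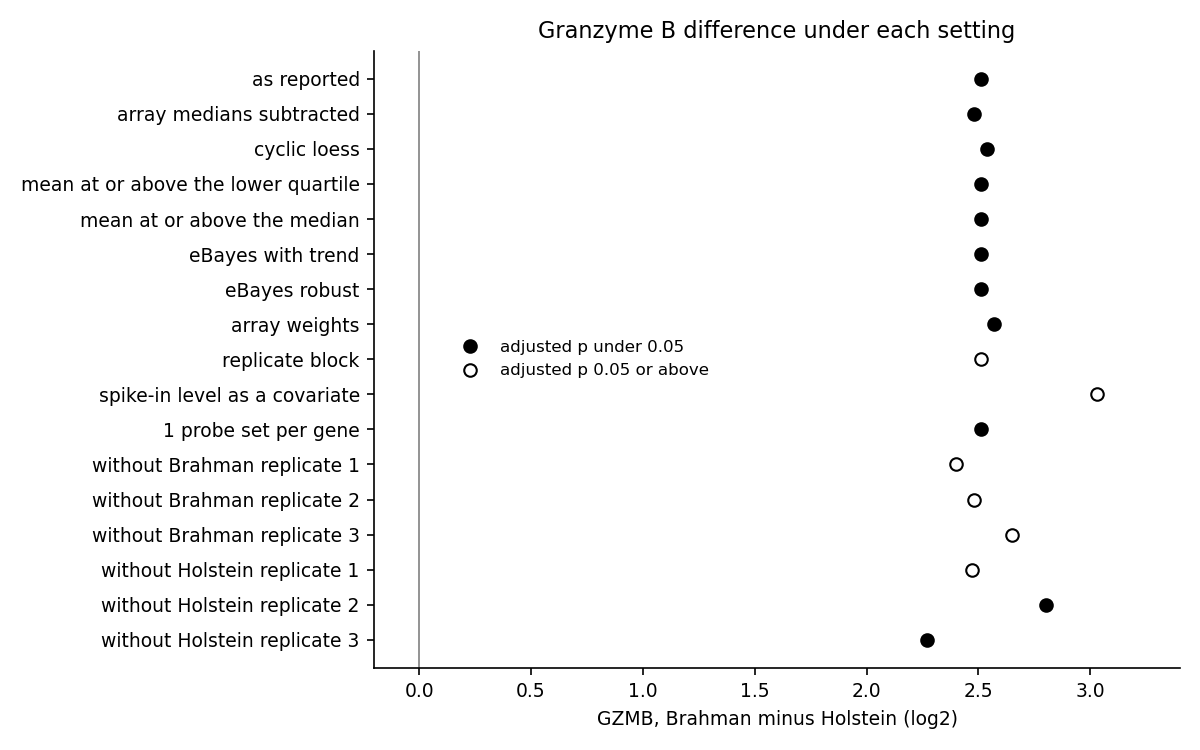
Difference in GZMB, Brahman minus Holstein on the log2 scale (horizontal axis), under the reported setting and each alternative (vertical axis). Filled points have a limma adjusted p under 0.05 and open points do not. All values lie between 2.27 and 3.03.

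The gene lies among protein-coding genes that have no name. In the RefSeq table of assembly ARS-UCD2.0, 11 protein-coding genes lie between LOXL1 and STXBP6, and GZMB is the only one of them with a name and the only one with a probe set in the annotation. The other 10 carry only a locus number, and their products are not named in that table. How closely they resemble GZMB was not examined, so signal from a near copy cannot be told apart from GZMB. RefSeq also lists BDMD1 and CTLA1 as synonyms of GZMB.

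PRF1 (Entrez gene 369025), the pore-forming protein that granzymes need to enter a target, did not show the GZMB pattern. It read 9.63, 8.70 and 9.14 in Brahman 1, 2 and 3, against 9.97, 9.71 and 9.58 in Holstein 1, 2 and 3. Brahman 1 lay within the Holstein range and the other two Brahman animals lay below it. The mean was 9.16 ± 0.46 (SD, n = 3) in Brahman and 9.75 ± 0.20 (SD, n = 3) in Holstein, a difference of -0.60 (SE 0.23), and limma did not call it. The size rested on the Brahman animals, at -0.83 without Brahman 1 and -0.37 without Brahman 2. The PRF1 mean was thus the lower one in Brahman and the GZMB mean the higher one, and whether these differences differ from each other was not tested.

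Granzymes A and K are trypsin-like proteases, and in these data they could not be followed. Neither GZMA nor GZMK had a probe set under its symbol or its Entrez identifier. The annotation holds a probe set for a gene entered as gzmA, which RefSeq keeps as a separate gene between GZMA and GZMK. It was not counted among the 9, and it was looked up after the other values were seen. It read 3.57, 3.54 and 3.70 in Brahman 1, 2 and 3, against 3.55, 3.82 and 4.13 in Holstein 1, 2 and 3. All these levels lie below the lower quartile of 5.08, where signal and background were not separated, and say nothing on whether the gene differs between the breeds.

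CTSW (Entrez gene 510967) encodes cathepsin W, a cysteine protease of the papain family found in NK and CD8 T cells. Its brighter probe set read 9.05, 9.11 and 9.32 in Brahman 1, 2 and 3, against 9.22, 9.45 and 9.13 in Holstein 1, 2 and 3. The breeds overlapped, with a difference of -0.11 (SE 0.12). The dimmer probe set averaged 7.27 ± 0.10 (SD, n = 3) in Brahman and 7.29 ± 0.13 (SD, n = 3) in Holstein, a difference of -0.02 (SE 0.11). In the model that includes the spike-in mean these differences were 0.20 and 0.15. Both probe sets placed Brahman 1 lowest and Brahman 3 highest within Brahman, and Holstein 3 lowest and Holstein 2 highest within Holstein.

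NKG7 (Entrez gene 513006) encodes a membrane protein of cytotoxic granules that mouse studies link to granule release. The brighter probe set read 8.43, 7.84 and 8.29 in Brahman 1, 2 and 3, against 8.63, 8.03 and 7.90 in Holstein 1, 2 and 3. The 2 breed means were equal to the second decimal, at 8.19 ± 0.31 (SD, n = 3) in Brahman and 8.19 ± 0.39 (SD, n = 3) in Holstein, with an SE of 0.23 on the difference. In the model that includes the spike-in mean the difference was -0.46. The dimmer probe set differed by 0.13 (SE 0.09) and overlapped between the breeds. It had a range of 0.06 in Brahman and 0.23 in Holstein, where the brighter one had ranges of 0.59 and 0.73. Brahman 1 was the lowest Brahman animal for the dimmer probe set, at 6.82, and the highest for the brighter one. Holstein 1 was the highest Holstein animal for both. Whether the 2 probe sets track the same differences among animals was not tested.

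FASLG (Entrez gene 407111), the gene of Fas ligand, gave only weak signal. Its probe sets averaged 4.60 ± 0.05 and 4.16 ± 0.11 in Brahman, against 4.54 ± 0.01 and 4.19 ± 0.15 in Holstein (log2 ± SD, 3 animals each). Both lie below the lower quartile of 5.08. The brighter one read 4.55, 4.62 and 4.64 in Brahman 1, 2 and 3, against 4.53, 4.54 and 4.54 in Holstein 1, 2 and 3, and so did not overlap, but the difference was 0.07 (SE 0.08) and not called. With GZMB it makes 2 of 9 probe sets without overlap, a share to be set beside the 20.0% of all probe sets. At these levels a breed difference in Fas ligand may not be detectable.

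CCL5 (Entrez gene 327712) had the largest SD within breeds, pooled over both, of the 9 probe sets. Within Holstein alone the SD of GZMB was larger, at 0.54 against 0.41 for CCL5. It read 10.65, 9.39 and 9.64 in Brahman 1, 2 and 3, against 9.52, 9.89 and 9.07 in Holstein 1, 2 and 3. Brahman 1 was far above all other animals, while Brahman 2 and 3 lay within the Holstein range. The mean was 9.89 ± 0.67 (SD, n = 3) in Brahman and 9.49 ± 0.41 (SD, n = 3) in Holstein, a difference of 0.40 (SE 0.34). It was 0.02 without Brahman 1, 0.65 without Brahman 2, 0.60 without Holstein 2 and 0.18 without Holstein 3. The SD within breeds, pooled over both, was 0.554 and exceeded that of 98.4% of all probe sets. For GZMB the same measure was 0.419 (95.9%), and for PRF1 it was 0.356 (93.4%), so these genes varied more among animals of a breed than most.

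Seen by animal, several of the genes shared an order. Taking the brighter probe set of each of the 6 genes, Brahman 1 was the highest Brahman animal for 4 genes (GZMB, PRF1, NKG7 and CCL5) and the lowest for CTSW and FASLG. Holstein 3 was the lowest Holstein animal for 5 genes, all but FASLG. Holstein 2 was the highest Holstein animal for GZMB, CTSW and CCL5, and Holstein 1 for PRF1 and NKG7. For FASLG, below the lower quartile, Holstein 2 and Holstein 3 were equal to the second decimal, and the range within Holstein was 0.01. With 3 animals in a breed these orders are only a description of these animals.

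Over the 9 probe sets 5 had higher and 4 lower values in Brahman, with a median absolute difference of 0.11, beside 0.12 over all probe sets. After GZMB the largest difference among them was the -0.60 of PRF1. The remaining genes of the killing pathway were taken from 5 lists, each read at the brightest probe set of a gene, with 64 different genes measured in all. Limma called 0 of the 64, against 0.137% of all probe sets, and 10 had an unadjusted p under 0.05, a share of 15.6% beside 13.6% of all probe sets. Values were higher in Brahman for 31 and lower for 33, with a median difference of -0.01, beside 0.02 over all probe sets. The list medians given next are small, and in the model that includes the spike-in mean all 5 take the other sign: -0.05 for granule contents, 0.06 for granule release, 0.05 for the death pathway, -0.02 for regulators and -0.09 for CCL5 partners.

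The first list held other granule contents and effector molecules, with 14 of 19 genes measured, 9 with higher and 5 with lower values in Brahman, a median of 0.07, and 0 called. CTSC encodes the dipeptidyl peptidase that activates granzymes by trimming their ends. It read 10.14, 10.07 and 9.84 in Brahman 1, 2 and 3, against 11.27, 11.11 and 10.47 in Holstein 1, 2 and 3. No Brahman animal reached the lowest Holstein animal, and the difference was -0.93 (SE 0.21, limma adjusted p = 0.160). CTSC was called only without Holstein 3. SERPINB6, an intracellular serine protease inhibitor, differed by -0.29 (SE 0.17). The genes named in the next sentences were chosen after their values were seen. SERPINB9, the inhibitor of granzyme B that protects the killer cell itself, read 5.03 ± 0.08 (SD, n = 3) in Brahman and 4.80 ± 0.22 (SD, n = 3) in Holstein, both below the lower quartile. GNLY, the gene of the bovine counterpart of granulysin, a membrane-lysing granule peptide, read 11.39, 10.30 and 11.12 in Brahman 1, 2 and 3, against 11.23, 10.72 and 10.61 in Holstein 1, 2 and 3. Its difference was 0.09 (SE 0.29), and Brahman 2 was the lowest of all animals for it, as for PRF1 and the brighter NKG7 probe set. SRGN, the proteoglycan that packs granzymes in the granule, differed by 0.05 (SE 0.09).

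Granule release was covered by 15 of 20 listed genes, 4 with higher and 11 with lower values in Brahman, a median of -0.09, which was 0.01 without Holstein 2, and 0 called. VAMP8, a vesicle fusion protein, averaged 10.02 ± 0.04 (SD, n = 3) in Brahman and 10.49 ± 0.25 (SD, n = 3) in Holstein, a difference of -0.46 (SE 0.13, limma adjusted p = 0.230), without overlap. RAB7A, a GTPase of late endosomes, differed by 0.34 (SE 0.12, limma adjusted p = 0.303), also without overlap. The core docking and priming genes, chosen after their values were seen, overlapped between the breeds: UNC13D differed by 0.03, RAB27A by 0.25 and STXBP2 by -0.18.

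In the list of death pathway components and granzyme substrates 14 of 20 genes were measured, 6 with higher and 8 with lower values in Brahman, a median of -0.06, which was 0.01 without Brahman 3 or without Holstein 2, and 0 called. CFLAR, an inhibitor of caspase 8 activation, averaged 9.21 ± 0.04 (SD, n = 3) in Brahman and 8.93 ± 0.09 (SD, n = 3) in Holstein, a difference of 0.28 (SE 0.09, limma adjusted p = 0.261), without overlap. APAF1, the scaffold of the apoptosome, differed by 0.41 (SE 0.13, limma adjusted p = 0.261), at levels below the lower quartile. FAS, the receptor of Fas ligand, differed by -0.15 (SE 0.16) and was chosen after its value was seen.

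Regulators of the cytotoxic programme had 13 of 23 listed genes measured, 7 with higher and 6 with lower values in Brahman, and 0 called. Their median was 0.02, which was -0.01 with array medians subtracted and ran from 0.03 to 0.15 with each array left out. STAT4, a transducer of the interleukin 12 signal, read 9.93, 9.72 and 10.06 in Brahman 1, 2 and 3, against 9.06, 9.36 and 9.32 in Holstein 1, 2 and 3. The breeds did not overlap, and the difference was 0.66 (SE 0.13, limma adjusted p = 0.123). IL15, a cytokine that sustains NK and memory CD8 T cells, read 7.50, 7.57 and 8.08 in Brahman 1, 2 and 3, against 8.58, 8.94 and 8.27 in Holstein 1, 2 and 3. It differed in the other direction, at -0.88 (SE 0.21, limma adjusted p = 0.179), again without overlap. TBX21, EOMES and RUNX3, the transcription factors most tied to granzyme and perforin expression, had no probe set under their symbols.

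Partners of CCL5 had 8 of 10 listed genes measured, 5 with higher and 3 with lower values, a median of 0.08, which was -0.04 without Holstein 3, and 0 called. CCL4, a chemokine of the same family as CCL5, differed by 0.41 (SE 0.16, limma adjusted p = 0.328), with overlap, and CXCR3, a chemokine receptor of activated T cells, by 0.14 (SE 0.09, limma adjusted p = 0.545).

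**Figure D3:**
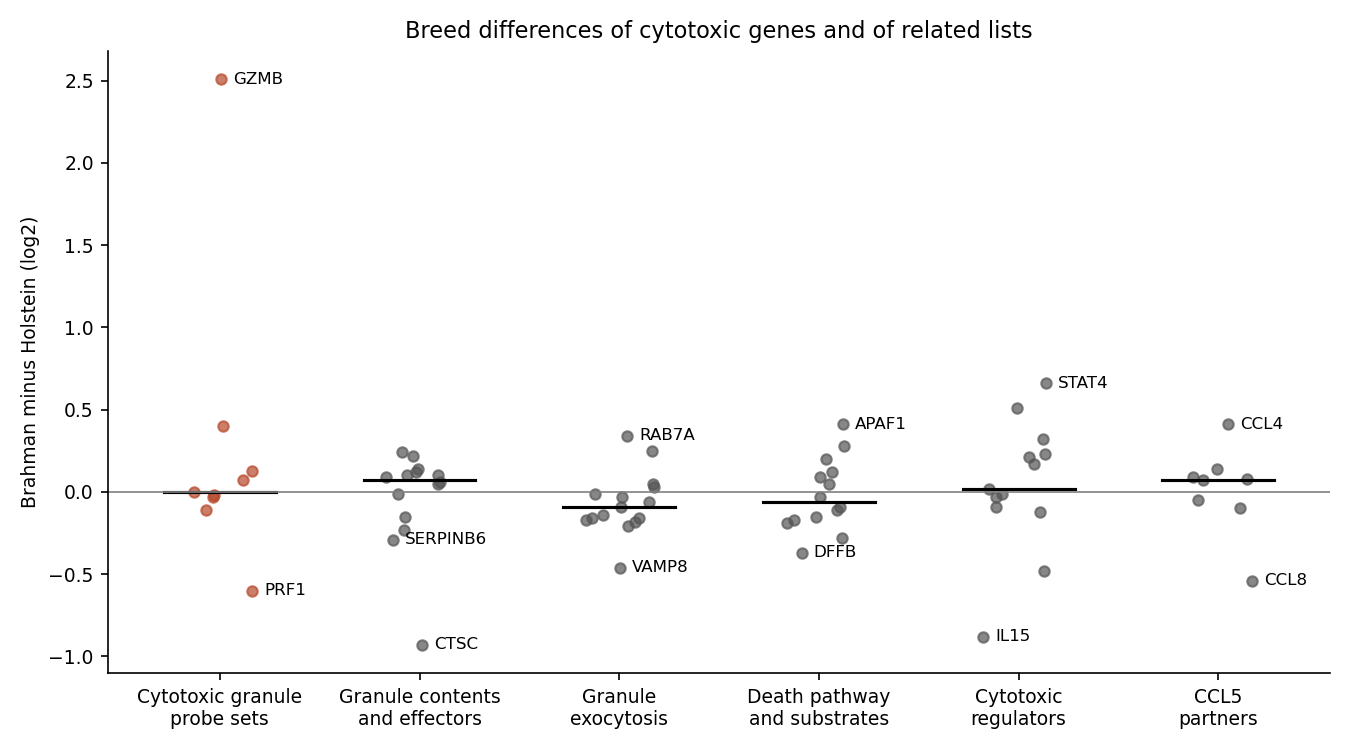
Difference between the breeds, Brahman minus Holstein on the log2 scale (vertical axis), for the 9 cytotoxic granule probe sets in red and for the genes of 5 related lists in grey (horizontal axis). A point is a probe set, a black bar is the median of its column, and the points farthest from 0 are named. GZMB at 2.51, chosen for its difference on these arrays, lies above every gene of the lists. The list values run from -0.93 for CTSC to 0.66 for STAT4.

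In whole blood leukocytes a higher signal can come from more cells of a type or from more RNA in each cell, and these cannot be told apart. Marker genes of the cells that could carry granzyme B are therefore given beside it. The animals' mean over 12 of 13 T cell markers was 9.99, 9.78 and 9.92 in Brahman 1, 2 and 3, against 9.57, 9.61 and 9.67 in Holstein 1, 2 and 3, so the breeds did not overlap. Of these markers 10 had higher values in Brahman, 7 of them without overlap, beside 11.7% of all probe sets with no overlap in that direction, and 0 were below the lower quartile or called. CD3E, a chain of the T cell receptor complex, differed by 0.54 (SE 0.11, limma adjusted p = 0.126), and the kinase ZAP70 by 0.77 (SE 0.22, limma adjusted p = 0.227). CD8A and CD8B, the coreceptor of most cytotoxic T cells, differed by 0.24 (SE 0.21) and -0.15 (SE 0.23) and overlapped. They were chosen after their values were seen.

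Only 2 of 6 symbols listed for gamma delta T cells had a probe set. The list held CD163L1 and its synonym WC1 as separate entries. CD163L1, which RefSeq lists with the synonym WC1, a surface protein of gamma delta T cells in cattle, read 8.93, 8.85 and 8.06 in Brahman 1, 2 and 3, against 7.70, 7.0 and 7.52 in Holstein 1, 2 and 3. The breeds did not overlap, and the difference was 1.21 (SE 0.27, limma adjusted p = 0.160). BLK, a kinase that B cells also use, differed by 0.97 (SE 0.17, limma adjusted p = 0.106), without overlap. Within Brahman both markers kept the order of GZMB, with Brahman 1 highest and Brahman 3 lowest. Within Holstein, Holstein 2 was highest for GZMB and lowest for both markers.

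The NK cell list had 9 of 14 markers measured, 6 with higher and 3 with lower values in Brahman and a median of 0.10. Its mean was 7.61, 7.36 and 7.40 in Brahman 1, 2 and 3, against 7.25, 7.51 and 7.25 in Holstein 1, 2 and 3. The breeds overlapped in that mean, which joins members in opposite directions. KLRD1, the receptor chain CD94, differed by 0.90 (SE 0.25, limma adjusted p = 0.216) without overlap. The IgG receptor FCGR3A differed by -0.78 (SE 0.32, limma adjusted p = 0.346), with overlap. The other lower markers were TYROBP at -0.41 (SE 0.22) and CD244 at -0.01 (SE 0.21), and KLRK1 was higher at 0.78 (SE 0.35). All of these overlapped, and TYROBP, CD244 and KLRK1 were chosen after their values were seen. NCR1, the receptor that defines bovine NK cells, differed by 0.09 (SE 0.15) and was chosen after its value was seen. KLRB1 and NCAM1 were below the lower quartile.

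Over these 3 lists 18 of 23 markers had higher values in Brahman, from -0.78 for FCGR3A to 1.21 for CD163L1. No marker in them differed by as much as GZMB. Since GZMB was chosen for its difference on these same arrays, that ordering is not a result about the markers. Limma called 0 of the 23 markers, with 11 (47.8%) at an unadjusted p under 0.05, beside 13.6% of all probe sets. The part of cell composition in the GZMB difference was not tested.

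Other cells that can make granzyme B or that fill the pellet were read in the same way. Plasmacytoid dendritic cell genes, 4 of 7 measured, had a mean of 8.55 ± 0.13 (SD, n = 3) in Brahman and 8.72 ± 0.03 (SD, n = 3) in Holstein, and every Brahman animal lay below every Holstein animal. That mean joins members in opposite directions. Their transcription factors TCF4 and SPIB differed by -0.38 (SE 0.15) and -0.23 (SE 0.23), TCF4 without overlap and SPIB with it. IRF7 was lower, at -0.15 (SE 0.22), and TLR9 higher, at 0.07 (SE 0.12), and both overlapped. IRF7 and TLR9 were picked with their values in view. TLR7, CLEC4C and IL3RA had no probe set under their symbols. B cell markers, 4 of 8, were at 10.74 ± 0.09 in Brahman and 10.74 ± 0.13 in Holstein, where the complement receptor CR2 differed by 0.35 and CD79A, a chain of the B cell receptor, by -0.23.

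Myeloid markers held larger differences in both directions. Neutrophil markers, 7 of 10, were at 8.99 ± 0.19 in Brahman and 8.83 ± 0.13 in Holstein, with a median difference of 0.08. ALPL, the alkaline phosphatase gene of that list, read 7.10, 7.18 and 6.31 in Brahman 1, 2 and 3, against 5.46, 5.39 and 5.46 in Holstein 1, 2 and 3. At 1.42 (SE 0.22, limma adjusted p = 0.0834) it had the largest difference of all 50 markers, without overlap. Apart from ALPL, differences in the neutrophil list ran only from -0.41 for the alarmin gene S100A12 to 0.09. Monocyte markers, 4 of 7, were at 8.97 ± 0.18 in Brahman and 9.19 ± 0.23 in Holstein, a mean that joins members in opposite directions. The proteoglycan gene VCAN differed by 0.92 (SE 0.13, limma adjusted p = 0.0719) and the lipopolysaccharide coreceptor gene CD14 by -0.94 (SE 0.20, limma adjusted p = 0.141), both without overlap.

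Platelet markers, 2 of 5, were at 7.45 ± 0.22 in Brahman and 7.70 ± 0.13 in Holstein, with PF4 at -0.60 and ITGA2B at 0.10. Erythroid markers, 5 of 6, were at 6.32 ± 0.04 in Brahman and 6.42 ± 0.25 in Holstein, with ALAS2 at -0.56 and HBA at -0.14. The list for eosinophils, basophils and mast cells had only FCER1A of 7 genes, which differed by 0.29 (SE 0.12, limma adjusted p = 0.357). Over all 10 marker lists limma called 0 of 50 genes, with 18 (36.0%) at an unadjusted p under 0.05, beside 13.6% of all probe sets. None of the 50 differed by as much as GZMB, which was itself chosen for its difference on these arrays.

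**Figure D4:**
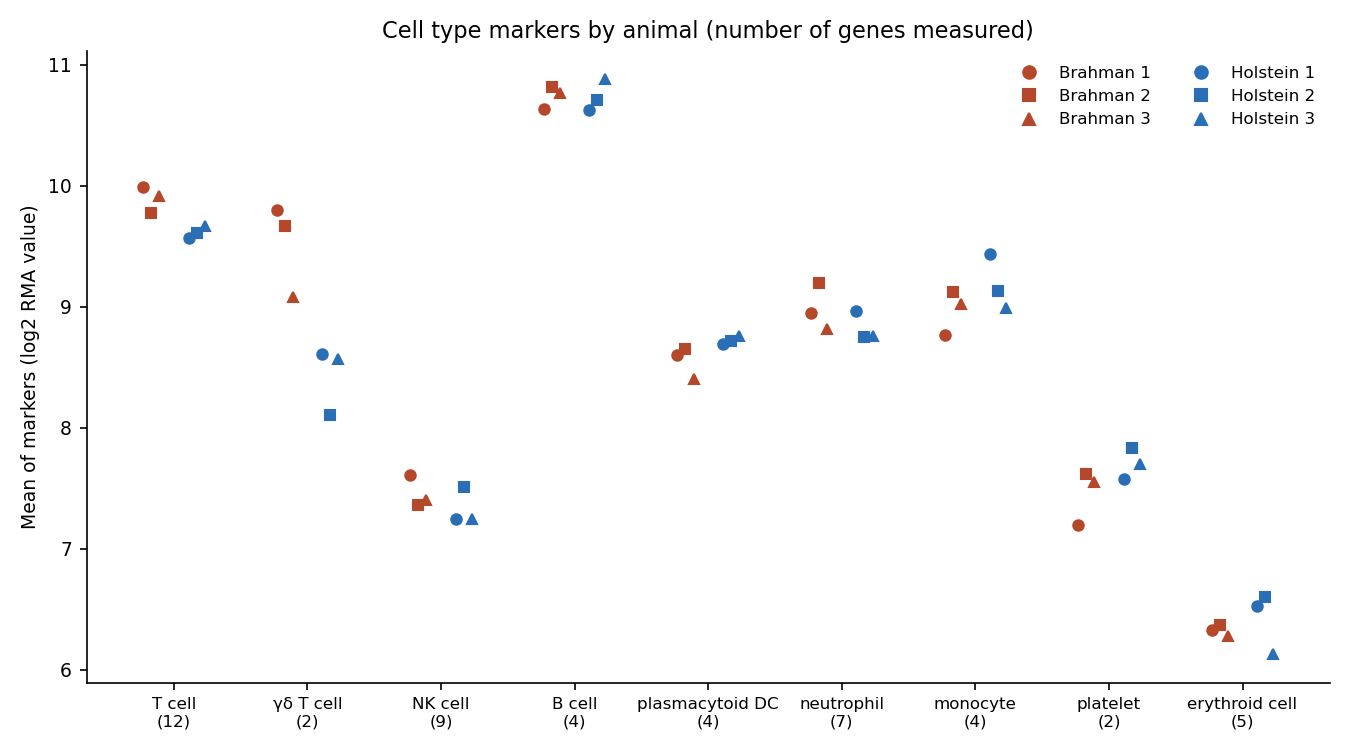
Mean log2 RMA level of the markers of each cell type (vertical axis) in each animal, Brahman in red and Holstein in blue, with the number of markers measured under each name (horizontal axis). T cell markers ran from 9.78 to 9.99 in Brahman and from 9.57 to 9.67 in Holstein. They and the gamma delta T cell pair lie higher in every Brahman animal. The mean of the NK cell markers, which joins members in opposite directions, overlaps between the breeds.

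The genes whose levels followed the cytotoxic genes most closely over the 6 animals were sought among 7838 probe sets with a single symbol and a mean at or above the median of all probe sets. For GZMB these were GIMAP6 (Pearson r = 0.987), a GTPase of lymphocytes, CFLAR (0.987) and the ribosomal stalk protein RPLP0 (0.985), all over 6 arrays that share the breed difference. They differed by 0.54, 0.28 and 0.08, so likeness in order came with far smaller differences. With 6 points such values are common: 100 of the 7838 reached 0.9 with GZMB. After each breed's mean was subtracted, the closest to GZMB were SLC30A5 (0.999), MTDH (0.998) and TXNDC17 (0.998), with 251 at 0.9 or above, and none of GIMAP6, CFLAR and RPLP0 was among these closest 3.

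For PRF1 the closest over the 6 arrays were MTHFD1L (0.986), SLC35B1 (0.984) and MRPS25 (0.984). For CTSW they were IKZF3 (0.996), the lymphocyte transcription factor Aiolos, KCNJ2 (0.989) and TPRKB (0.983), and IKZF3 was also the closest after breed means were subtracted (0.995). For NKG7 they were MED22 (0.989), TAPBPL (0.985) and ALDH16A1 (0.981), of which MED22 was also among the closest 3 without the breed means (0.999). For CCL5 they were TFF2 (0.976), SAYSD1 (0.968) and SCAP (0.963). FASLG, whose signal was near the floor of the array, was closest to RPL32 (0.984), ZMYM5 (0.981) and DOCK9 (0.975). No gene was named in the closest 3 of more than 1 of the 6 cytotoxic genes over the 6 arrays.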

How the data were processed

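The authors deposited log2 expression values per probe set and array, made with RMA per the submitters' processing notes, whose version was not given in the sources used here. That method subtracts background, gives all arrays the same distribution and combines its probes into 1 value, so a change shared by all transcripts would be removed. Scanner intensities and detection calls were not used here. Having only 3 arrays per breed limits the precision. The table holds 24128 probe sets, and 112 array controls were left out of the tests. Gene symbols came from the platform annotation, with 1 symbol for 13292 probe sets, several for 86 and none for 10638. All 6 cytotoxic genes with a probe set matched RefSeq (ARS-UCD2.0) by Entrez identifier. No coordinates are given, since no build is named for the array.

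Brahman was compared with Holstein in limma 3.58.1 (R 4.3.3; lmFit and eBayes, breed as the only term, two-sided), adjusted by Benjamini-Hochberg over 24016 probe sets and called at an adjusted p under 0.05. SE is the moderated standard error. Per the labels each array is a different animal. The pipeline was tested on simulated data. The members and the gene lists were chosen with earlier results of these data known. Named genes are all member probe sets, the 2 genes of each list with the smallest p (or those called), and the 3 genes with the most similar pattern. The text marks each gene that was named outside this rule with its value in view. Alternatives were array medians, cyclic loess, filters on dim probe sets, other priors, weighted arrays, a block for the replicate number, the spike-in mean as a covariate, 1 probe set per gene, and each array left out.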

Additional observations from a re-analysis of the deposited data

How the results depend on the processing

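The GZMB difference stayed between 2.48 and 2.57 and was called under array medians, cyclic loess, both dim filters, both priors, array weights and 1 probe set per gene. With the spike-in mean as a covariate it was 3.03 and not called (limma adjusted p = 0.358). It ran from 2.27 to 2.80 with each array left out and was called in 2 of those 6 fits, with adjusted p-values from 0.0264 to 0.133. The deviations of same-numbered arrays from their breed means correlated at 0.111, -0.043 and -0.074. Those of differently numbered arrays correlated at -0.086 to 0.118, so the same numbers did not stand out. With 3 animals per breed this cannot settle whether the numbers mark a pairing. With the replicate number as a block the GZMB difference was 2.51 (limma adjusted p = 0.0536), 0 cytotoxic probe sets were called, with 2 at an unadjusted p under 0.05, and 10 probe sets were called over the array. The count of cytotoxic probe sets called was also 0 with the spike-in covariate, with 1 at an unadjusted p under 0.05, and ran from 0 to 1 with each array left out. The 33 probe sets called over the array became 0 with the spike-in covariate (2400 at an unadjusted p under 0.05) and 15 with 1 probe set per gene, and ran from 5 without Brahman 2 to 55 without Holstein 3. The count of list genes called stayed at 0, except for CTSC without Holstein 3, a range from 0 to 1. The FASLG probe sets and gzmA are limited by weak signal.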
